A study of Gallus gallus with 2 samples.

Results

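Solute carriers are membrane proteins that move amino acids, sugars, nucleotides, vitamins, metals and ions across the plasma membrane and the membranes of organelles. Most are secondary transporters, which use the gradient of one solute to move another, or facilitators, which let a solute run down its own gradient. In lymphocytes they are known for the uptake of amino acids, glucose and folate during growth, for lactate export, and for loading the Golgi and lysosomes with substrates. The genes described here were those whose symbol in the array's annotation starts with SLC and a digit, without the mitochondrial SLC25 family. Of 13009 named genes on the array, 252 met this rule, with 591 probe sets. Of the 252, 132 had a signal of at least 98 on 1 or both arrays and 120 did not. Functions given below are those known from mammals.

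The RNA came from DT40, a chicken B-cell line derived from a bursal lymphoma. In the H2A.Z-1 KO cells this form of the histone variant H2A.Z was lost conditionally, since tetracycline shuts off an H2A.Z-1 transgene. The H2A.Z-2 KO cells lacked the related form H2A.Z-2 constitutively. The labels do not say whether each knockout is 1 clone. Tetracycline was given to both for 72 hours at 2 µg/ml, and each culture was measured on 1 Affymetrix chicken array. No unmodified DT40 culture was analysed here, so each ratio sets one knockout against the other and assigns a change to neither. The precision is limited by the number of arrays: with 1 for each genotype, no difference has a replicate error, a test or a p-value. Where 2 signals of a gene or probe set are given, H2A.Z-1 KO comes first. Culture and genotype cannot be told apart, nor can constitutive loss and loss induced over 72 hours.

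H2AFZ, the gene of H2A.Z-1, had a signal of 614.6 in H2A.Z-1 KO and 27642 in H2A.Z-2 KO, whereas H2AZ2 had 20911 and 42.1, so both arrays matched their labels. The 2% trimmed mean signals were 500.2 and 500.1. Of 13 B-cell markers, 12 had a named probe set and all 12 passed the threshold. Of these, 7 were higher in H2A.Z-1 KO by at least 2-fold and none in the other culture. Over all genes measured, 2.86% were higher in H2A.Z-1 KO and 3.8% in H2A.Z-2 KO by the same rule. The summed signals of the 12 markers were 43247 in H2A.Z-1 KO and 18595 in H2A.Z-2 KO. The T-cell genes CD3D and CD8A also passed the threshold, while CD3E, CD4, CD28, LCK and ZAP70 did not. The brighter of the 2 that passed had 9211 in H2A.Z-1 KO and 7509 in H2A.Z-2 KO. The dimmer had no more than 98 in H2A.Z-1 KO and 157.4 in H2A.Z-2 KO. Of the other marker lists, CTSK, HBAD, COL1A1 and COL1A2 passed with signals of at most 176.2 on either array. The part of the B-cell marker difference in the results below was not tested.

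Solute carriers of most kinds passed the threshold on 1 or both arrays. Leaving aside 4 genes that are only named after a carrier, 128 of 248 carriers passed the threshold, and they belonged to 44 of 47 families. In SLC8, SLC11, SLC32, SLC40, SLC44, SLC46 and SLC51 every gene that passed did so only in H2A.Z-2 KO. The share of all 252 genes that passed was 52.4%, against 61.3% of all named genes on the array. In the SLC35 family, which includes carriers of nucleotide sugars into the Golgi and endoplasmic reticulum, 19 of 24 genes passed. Of SLC30, mostly zinc carriers, 7 of 9 passed, and of the neutral amino acid carriers of SLC38, 7 of 9. Smaller shares passed in some families, such as 1 of 6 glutamate and neutral amino acid carriers of SLC1. Of the organic ion carriers of SLC22 3 of 11 passed, and of SLC6 5 of 13. In other families most genes passed, such as 3 of 4 in SLC18 and 3 of 3 in SLC23. No gene of SLC3, SLC14 or SLC28 passed. For SLC3 the array's annotation gave only SLC3A1. SLC3A2, the heavy chain that carries SLC7A5 to the cell surface, and the glutamine carrier SLC1A5 were not analysed here.

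**Figure D1:**
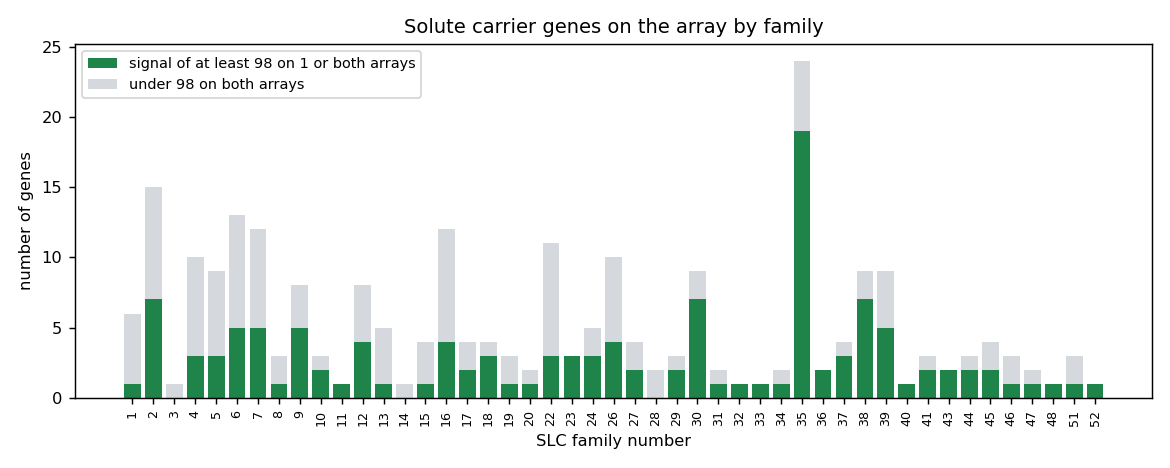
Number of solute carrier genes on the array (vertical axis) in each SLC family (horizontal axis), split into genes with a signal of at least 98 on 1 or both arrays (green) and genes under 98 on both (grey). The 24 genes of family 35 form the tallest bar, with 19 above the threshold, and families 3, 14 and 28 have none.

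The threshold is not a sharp border of expression. Just inside it were SLC12A5, with 59.2 in H2A.Z-1 KO and 98.5 on the other array, and SLC51B, with 50.3 and 99.5. Just outside were SLC7A1, with 88.3 and 97.1, and SLC15A2, with 96.5 and 26.6. SLC12A5 and SLC51B, known from neurons and from gut and kidney, each passed through 1 array only.

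The comparison of the 2 arrays addressed which carriers differ between cells lacking one or the other H2A.Z form. Ratios are log2 of the signal in H2A.Z-1 KO over that in H2A.Z-2 KO, with signals under 98 raised to 98, so that such a ratio is only a bound, and the threshold for a call was 2-fold. With this floor, 119 of 132 genes lay within 2-fold and 91 within 1.5-fold. Of the 119, 25 passed the threshold only in H2A.Z-2 KO and 3, SLC22A15L, SLC45A3 and SLC5A9, only in H2A.Z-1 KO. The ratios of all these genes are bounds, so their differences can be larger than 2-fold. Higher in H2A.Z-1 KO by at least 2-fold were 4 genes, or 3.03%, and over all 7979 named genes measured 2.86% were. Higher in H2A.Z-2 KO by at least 2-fold were 9 genes, or 6.82%, beside 3.8% of all genes. The first share is close to that of all genes, and the second is higher by a few genes. Past 1.5-fold the shares were 8.33% toward H2A.Z-1 KO and 22.7% toward H2A.Z-2 KO, beside 7.57% and 11.7% of all genes. Log2 ratios of probe sets of the same gene had a pooled SD of 0.34 for solute carriers and 0.36 for all genes, and this spread lies within the arrays, not between cultures.

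**Figure D2:**
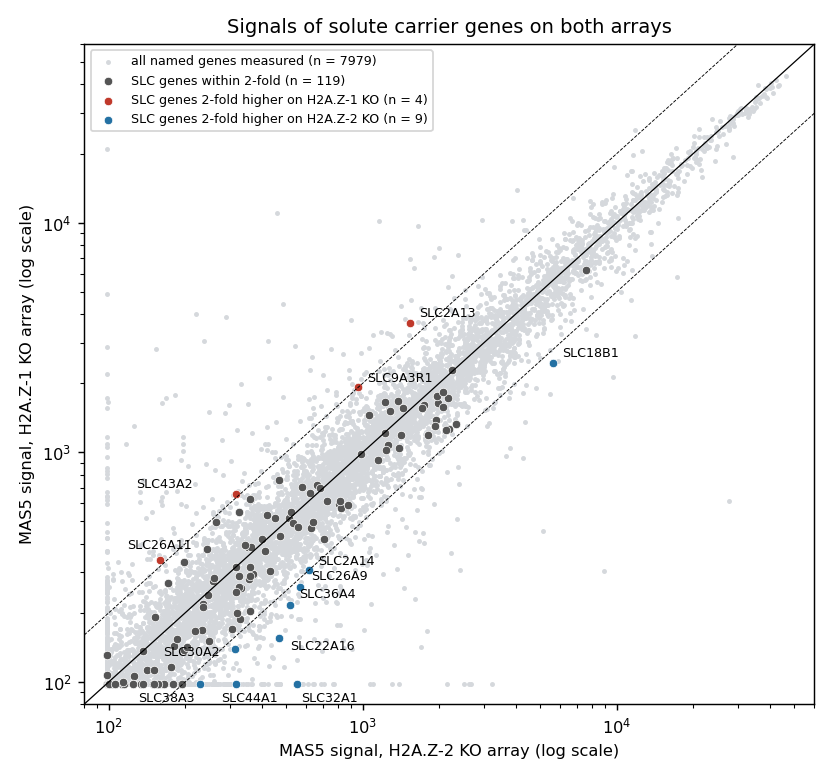
Signal of each gene in H2A.Z-2 KO (horizontal, log scale) and in H2A.Z-1 KO (vertical, log scale), as geometric means of its probe sets with values under 98 set to 98. Grey points are all 7979 named genes measured, dark points are 119 solute carrier genes within 2-fold, and coloured points are the 4 and 9 genes past 2-fold; the solid line marks equal signals and the dashed lines 2-fold.

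The 9 genes higher in H2A.Z-2 KO included carriers known from specialised tissues. SLC32A1, which loads the inhibitory transmitters GABA and glycine into synaptic vesicles, had signals of 19.1 in H2A.Z-1 KO and 550.9 in H2A.Z-2 KO. It was thus under the threshold in H2A.Z-1 KO and higher in H2A.Z-2 KO by at least 5.62-fold, on 1 probe set. SLC44A1 encodes the choline carrier CTL1, which supplies choline for phosphatidylcholine. Its 3 probe sets gave 44.2, 55.4 and 85.4 in H2A.Z-1 KO and 348.3, 498.2 and 183.0 in H2A.Z-2 KO. All 3 were under the threshold on the first array and above it on the second, and the gene was higher in H2A.Z-2 KO by at least 3.23-fold. SLC22A16, a carnitine carrier known from human testis, had 210.2 and 115.1 in H2A.Z-1 KO and 518.8 and 422.0 in H2A.Z-2 KO. Both of its probe sets were higher on the second array, 3.01-fold as a mean, and both are of a type that can also match other transcripts.

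SLC18B1, a vesicular polyamine carrier, had signals of 2454 and 5597 in H2A.Z-1 KO and in H2A.Z-2 KO, 2.28-fold higher in H2A.Z-2 KO. Both values lay far above the threshold, unlike those of SLC32A1. SLC30A2, which moves zinc into vesicles, had 139.2 and 315.0, a difference of 2.26-fold. SLC26A9, a chloride transporter of epithelia, had 258.7 and 566.6, a difference of 2.19-fold. SLC38A3, a glutamine carrier of liver and brain, had 97.4 and 228.1, higher in H2A.Z-2 KO by at least 2.33-fold, with the first value just under the threshold. Each of these 4 genes rests on 1 probe set. The log2 ratio of SLC26A9 was -1.13, and -0.38 with a 40th-percentile floor, where dimmer probe sets of the gene enter.

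For SLC36A4 and SLC2A14 the call depended on which probe sets or scaling were used. SLC36A4, a carrier of proline and tryptophan, had 2 probe sets above the threshold, with 233.9 and 200.5 in H2A.Z-1 KO against 571.7 and 471.3 in H2A.Z-2 KO. They agreed at 2.44-fold and 2.35-fold, yet the log2 ratio of the gene moved from -1.26 to -0.58 with a 40th-percentile floor and to 0.02 with no floor, as its dimmer probe sets entered. SLC2A14, a hexose facilitator named after human GLUT14, had 2 probe sets that differed from each other. One gave 728 and 2763, 3.80-fold higher in H2A.Z-2 KO, and the other 128.7 and 137.6, almost equal. Their mean log2 ratio of -1.01 was just past 2-fold, and it was -0.96, -0.92 and -0.92 with median centring, quantile normalization and removal of the brightness trend.

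The 4 genes higher in H2A.Z-1 KO comprised 3 carriers and 1 scaffold protein. SLC2A13, the proton-coupled myo-inositol carrier HMIT, had signals of 3674 in H2A.Z-1 KO and 1537 in H2A.Z-2 KO, a difference of 2.39-fold. SLC26A11, a sulfate carrier, had 340.8 and 158.9, 2.14-fold higher in H2A.Z-1 KO. SLC43A2, known as LAT4, lets branched-chain amino acids, methionine and phenylalanine leave cells, and had 661.2 and 315.8, a difference of 2.09-fold. All 3 rest on 1 probe set above the threshold. The log2 ratio of SLC26A11 was 1.10, and 0.89 with a 40th-percentile floor. That of SLC43A2 was 1.07, and 0.22 with an 80th-percentile floor, a signal of 567.9 that lies above its value in H2A.Z-2 KO.

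SLC9A3R1 is no carrier: it encodes the scaffold NHERF1, which ties sodium-proton exchangers and other membrane proteins to the actin cortex. Its 2 probe sets gave 3031 and 1223 in H2A.Z-1 KO and 1003 and 913.7 in H2A.Z-2 KO. Both were higher in H2A.Z-1 KO, 3.02-fold and 1.34-fold, and the mean log2 ratio of 1.01 was 0.97 with quantile normalization and 0.99 without the brightness trend, just under 2-fold. The related scaffold SLC9A3R2 stood at 0.76, with 551.0 and 326.3. The other genes only named after a carrier were SLC4A1AP at 0.14 and SLC7A6OS at -0.15. Without these 4 genes the counts past 2-fold were 3 and 9.

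**Figure D3:**
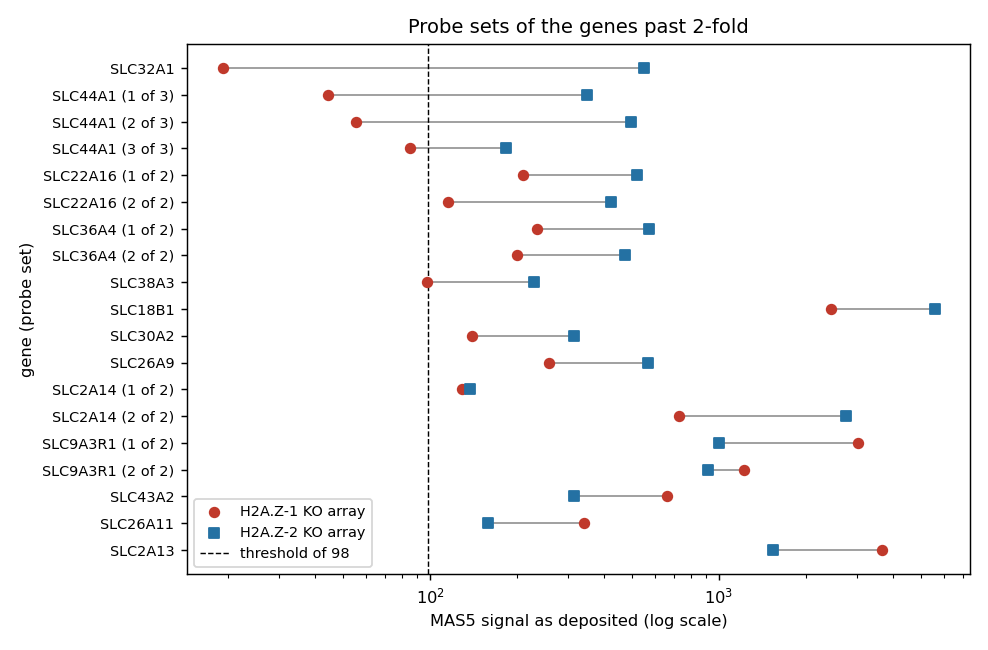
Deposited MAS5 signal (horizontal, log scale) of each probe set above the threshold in the 13 genes past 2-fold, 1 row per probe set, with a red point for the H2A.Z-1 KO array, a blue square for the H2A.Z-2 KO array and a dashed line at the threshold of 98. The 3 probe sets of SLC44A1 and the probe sets of SLC32A1 and SLC38A3 cross the threshold, while 1 of 2 probe sets of SLC2A14 has nearly equal signals of 128.7 and 137.6.

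Below the 2-fold level the ratios leaned to the H2A.Z-2 KO array. The median log2 ratio of the 132 genes was -0.24, with quartiles of -0.52 and 0.03, and that of all 7979 genes was -0.06. A ratio under 0 was seen in 95 of 132 genes, or 72.0%, beside 57.4% of all genes. Higher in H2A.Z-2 KO by at least 1.5-fold were 30 genes, or 22.7%, beside 11.7% of all genes, and 11 genes, or 8.33%, beside 7.57%, were so in H2A.Z-1 KO. Many dim members passed the threshold through 1 array: 28 only in H2A.Z-2 KO and 3 only in H2A.Z-1 KO. For all genes these shares were 7.98% and 3.17%, beside 21.2% and 2.27% for solute carriers. Such genes must differ by construction, and the H2A.Z-2 KO array had the higher signals among dim probe sets, with 60th percentiles of 106.2 against 89.1.

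The lean was also seen among the 94 genes whose probe sets all passed on both arrays. Their median was -0.23, beside -0.04 for the 6367 such genes of the whole array, and 67.0% were under 0, beside 54.9%. In this set 6 genes, or 6.38%, were higher in H2A.Z-2 KO by at least 2-fold and 4, or 4.26%, in H2A.Z-1 KO, where all genes had 2.81% and 2.26%. At 1.5-fold the counts were 16 genes, or 17%, and 10 genes, or 10.6%, where all genes had 10.2% and 7.24%. With the trend of ratio on brightness removed, the median of the 132 genes was -0.17 and that of all genes -0.02. With median centring the 2 values were -0.18 and -0.01, and with quantile normalization -0.20 and -0.02. The difference between the medians has no replicate check.

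**Figure D4:**
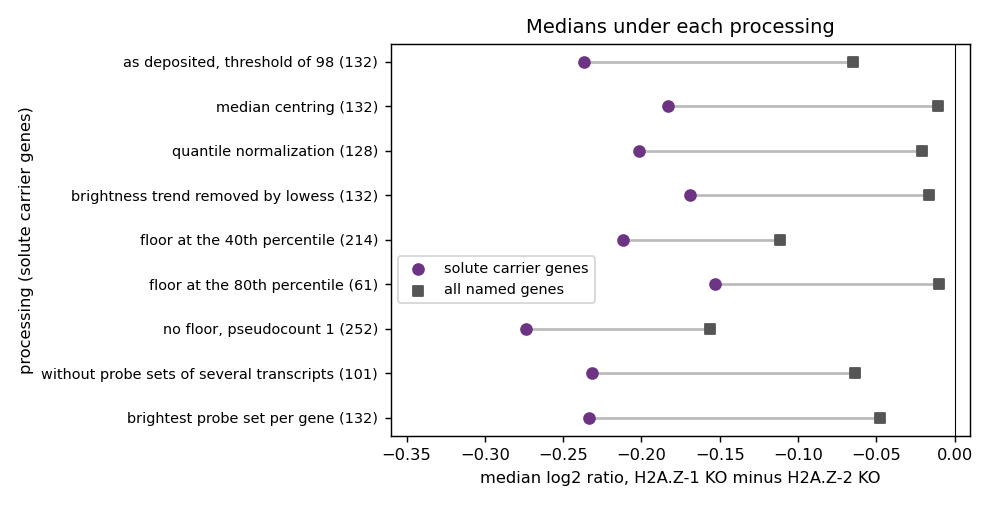
Median log2 ratio (horizontal axis) of the solute carrier genes (purple circles) and of all named genes (grey squares) under the main processing and each alternative (vertical axis, with the number of solute carrier genes in brackets). The solute carrier medians run from -0.27 to -0.15 and lie below the median of all genes in every row.

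The carriers were grouped by substrate into 8 classes, of which 6 held at least 1 gene past 2-fold. Over all genes measured, 2.86% were past 2-fold in H2A.Z-1 KO and 3.8% in H2A.Z-2 KO. In the plot of ratios by class, the median of nucleosides and vitamins lay nearest to 0 and that of the 6 vesicular carriers farthest from it. This order did not hold for genes with every probe set used above the threshold on both arrays. Among those, inorganic ions lay nearest to 0, with a median of 0.05, and lipids and organic ions farthest, at -0.54 over 4 genes.

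**Figure D5:**
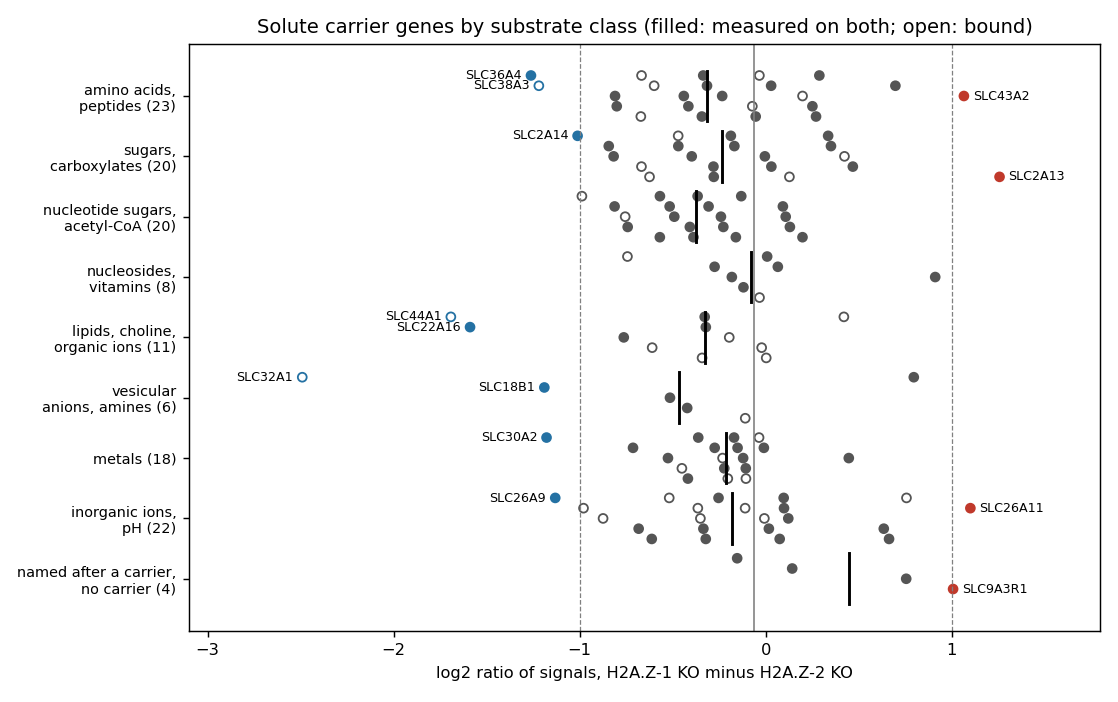
Log2 ratio of each of the 132 genes (points, horizontal axis) by substrate class (rows, with the number of genes), with filled points for measured ratios, open points for ratios that are bounds because a probe set was under 98 on the lower array, and black bars for class medians. The grey line marks the median of all genes, -0.06, dashed lines mark 2-fold, and genes past 2-fold are named.

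Amino acid carriers supply growing lymphocytes with leucine, glutamine, serine and cystine. Of 23 genes measured from 49, 1 was higher in H2A.Z-1 KO by at least 2-fold and 2 in H2A.Z-2 KO. Of all genes 2.86% and 3.8% were. The class median was -0.32, and 0.01 with an 80th-percentile floor. SLC7A5, the light chain of the leucine exchanger LAT1, had 1039 in H2A.Z-1 KO and 1385 on the other array, a ratio of -0.42 with both probe sets below 0. SLC7A6, the light chain of an arginine and glutamine exchanger, stood at 0.27 with 1666 and 1381. These light chains pair with the same heavy chain, SLC3A2, and had opposite signs. SLC7A3, a carrier of cationic amino acids, had all 5 probe sets below 0, with a mean of -0.44. SLC7A11, the cystine exchanger, had 64.2 and 103.0, just over the threshold in H2A.Z-2 KO and under it in H2A.Z-1 KO.

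SLC1A4, which exchanges alanine, serine and cysteine, had 1257 and 2188, a ratio of -0.80. The glycine carrier SLC6A9 had 1720 and 2170, a ratio of -0.34, and the taurine carrier SLC6A6 also stood at -0.34, but with probe sets at -0.80 and 0.12. All 5 SLC6 genes measured were below 0, beside 57.4% of all genes. Among them SLC6A12 and SLC6A17 passed the threshold only in H2A.Z-2 KO and so had to be below 0. Members of the SLC38 family, which take up glutamine and other neutral amino acids with sodium, went both ways. SLC38A2, the amino acid-regulated SNAT2, was higher in H2A.Z-1 KO, with 758.2 and 467.5 and a ratio of 0.70 with both probe sets above 0. SLC38A1 stood at 0.25 over 5 probe sets, with 1519 and 1276. SLC38A9, the lysosomal arginine sensor of mTORC1, was lower in H2A.Z-1 KO, with 187.8 and 329.1 and a ratio of -0.81. The lysosomal SLC36A1 stood at -0.60 and SLC38A7 at -0.67, both with a probe set under the threshold in H2A.Z-1 KO. SLC15A4, a lysosomal histidine and peptide carrier needed for endosomal Toll-like receptor signalling in B cells, stood at 0.29 with 706.7 and 578.4. SLC43A3, a relative of SLC43A2 that carries purine nucleobases in human cells, had 2291 and 2245, nearly equal signals.

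The 20 genes measured from 49 for sugars, carboxylates and sodium-coupled organic solutes had 1 gene past 2-fold in each direction. Of all genes 2.86% were past it in H2A.Z-1 KO and 3.8% in H2A.Z-2 KO. The class median was -0.23, and 0.03 with no floor. SLC2A1, the glucose facilitator GLUT1, was higher in H2A.Z-1 KO, with 1460 and 1055 and a ratio of 0.47. The intracellular hexose carrier SLC2A8 stood at -0.28, with 1019 and 1238. Over the 7 SLC2 genes measured the ratios ran from -1.01 to 1.26, so glucose and related facilitators had no common direction. SLC16A1, the lactate carrier MCT1, had 1833 and 2059, a ratio of -0.17 with probe sets from -0.62 to 0.20. SLC16A10, which moves aromatic amino acids, stood at 0.35 with all 5 probe sets above 0. SLC16A13 was lower in H2A.Z-1 KO, with 169.6 and 304.2 and a ratio of -0.84, and the citrate carrier SLC13A5, with 203.4 and 358.3, stood at -0.82. The glucose-6-phosphate translocase SLC37A4 of the endoplasmic reticulum had 315.3 and 316.2, equal within rounding of the ratio.

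The class of nucleotide sugars and acetyl-CoA held the SLC35 family and SLC33A1. Membership followed the family number, not a substrate known for each gene. Of 20 genes measured from 25, none passed 2-fold, 16 were below 0, beside 57.4% of all genes, and the median was -0.38. The difference from all genes was not tested. In 18 of them every probe set used passed on both arrays, with a median of -0.34. The SLC35 family alone had 15 of 19 genes below 0 as deposited, and 15 with median centring, quantile normalization or the brightness trend removed. The shares of all genes below 0 were 57.4% as deposited and 51.2%, 52.7% and 52.3% with these scalings in that order. SLC35A5 and SLC35G1 passed the threshold only in H2A.Z-2 KO and so had to be below 0 as deposited. The median of the SLC35 family ran from -0.47 to -0.25 over all alternatives. SLC35D1, which brings UDP-glucuronic acid and UDP-N-acetylgalactosamine into the endoplasmic reticulum, had 1322 and 2321, a ratio of -0.81. SLC33A1, the acetyl-CoA carrier of the endoplasmic reticulum, had 1379 and 1938, a ratio of -0.49 with all 3 probe sets below 0. SLC35E3 had 1580 and 2068, a ratio of -0.39, and SLC35F6, with 1303 and 1932, stood at -0.57. SLC35G1 was under the threshold in H2A.Z-1 KO and at 194.3 in H2A.Z-2 KO, a difference of at least 1.98-fold, and its log2 ratio was -1.30 with a 40th-percentile floor, past 2-fold.

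Other members of the class stood between -0.75 and 0.20. SLC35A5 stood at -0.75, a bound with its probe set under the threshold in H2A.Z-1 KO, and SLC35A4 at -0.74. The sialic acid donor carrier SLC35A1 had 1558 and 1706, a ratio of -0.13. SLC35A3, which carries UDP-N-acetylglucosamine, stood at -0.23, the GDP-fucose carrier SLC35C1 at -0.24 and the sulfate donor carrier SLC35B2 at -0.31 with probe sets on both sides of 0. SLC35G2 stood at 0.20, highest of the class, and SLC35E2B at 0.13 with probe sets at -0.28 and 0.54. The putative fucose carrier SLC35C2 had 1558 and 1446, a ratio of 0.11. Apart from SLC35A4 and SLC35A5, the genes named here differed by under 1.5-fold.

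Of 8 folate, nucleoside and vitamin carriers measured from 15 none passed 2-fold and 6 lay within 1.5-fold, with a median of -0.08 that was 0.0083 with a 40th-percentile floor and with an 80th-percentile floor. SLC19A1, the reduced folate carrier, had 6233 and 7538, a ratio of -0.27 on 1 probe set that can match several transcripts. The nucleoside carrier SLC29A1, which also takes up nucleoside drugs, had 1610 and 1749, a ratio of -0.12, and the riboflavin carrier SLC52A3 had 985.2 and 979.6, a ratio of 0.01. One of the 2 past 1.5-fold was SLC23A1, a sodium-coupled ascorbate carrier, with 498.7 in H2A.Z-1 KO and 265.1 on the other array, a ratio of 0.91 on 1 probe set. Its relative SLC23A2 stood at 0.07, with 5 probe sets from -0.27 to 0.43. The other was the proton-coupled folate carrier SLC46A1, which was under the threshold in H2A.Z-1 KO and at 164.0 in H2A.Z-2 KO, a difference of at least 1.67-fold.

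Of the 11 genes measured from 26 for lipids, choline and organic ions, SLC44A1 and SLC22A16 passed 2-fold in H2A.Z-2 KO, beside 3.8% of all genes. The median was -0.33, and 9 were below 0, beside 57.4% of all genes. SLC10A4, SLC22A13L, SLC44A1, SLC44A5 and SLC51B passed the threshold only in H2A.Z-2 KO and so had to be below 0. SLC27A4, a fatty acid transport protein with acyl-CoA synthetase activity, was lower in H2A.Z-1 KO, with 1256 and 2131 and a ratio of -0.76, and its 2 probe sets agreed at -0.78 and -0.74. SLC27A2 stood at -0.33 with 259.6 and 325.7. SLC10A7, a Golgi protein linked to calcium and glycosylation, had 921 and 1151, a ratio of -0.32. SLC22A15L was the highest of the class, at 0.42. All 3 of its probe sets passed the threshold only in H2A.Z-1 KO, so it had to be above 0. SLC47A1, an exporter of organic cations, had 136.2 and 135.9 after the floor.

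The vesicular and lysosomal carriers of organic anions and amines comprised 6 genes measured from 9. Of these, SLC32A1 and SLC18B1 were past 2-fold in H2A.Z-2 KO, beside 3.8% of all genes. SLC32A1 and SLC18A2 passed the threshold only in H2A.Z-2 KO and so had to be below 0. SLC17A9, which loads ATP into vesicles, went the other way, with probe sets of 1455 and 268.7 in H2A.Z-1 KO and 724.0 and 179.0 in H2A.Z-2 KO. Its mean ratio of 0.80 was 1.01 for the brighter probe set, just past 2-fold. The lysosomal sialic acid exporter SLC17A5 had 302.6 and 432.2, a ratio of -0.51. The monoamine carriers SLC18A1 and SLC18A2 were dim, with signals of at most 151.1.

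Most metal carriers were below 0 by small amounts. Of 18 genes measured from 26, 17 were below 0 and 15 with median centring, 15 of 17 with quantile normalization and 14 with the brightness trend removed. The shares of all genes below 0 were 57.4%, 51.2%, 52.7% and 52.3% in that order, and the difference was not tested. SLC11A1, SLC30A7, SLC40A1 and SLC41A2 passed the threshold only in H2A.Z-2 KO and so had to be below 0. The median of the 18 metal genes was -0.21, and -0.11 with the brightness trend removed. All 7 genes of SLC30, which mostly move zinc out of the cytosol, and all 5 of SLC39, which bring it in, were below 0. Of the SLC30 genes 6 and of the SLC39 genes 4 were so with the brightness trend removed. From only the brightest probe set of a gene these counts were 7 and 3. SLC30A4, SLC30A5, SLC39A3, SLC39A11 and SLC39A13 had probe sets on both sides of 0. Apart from SLC30A2, the lowest of the SLC30 and SLC39 genes was SLC30A1, the zinc exporter of the plasma membrane. Its signals were 569.1 and 818.9, a ratio of -0.52 with both probe sets below 0. SLC30A5 and SLC30A6, which form a zinc-loading heterodimer in the early secretory pathway, stood at -0.27 and -0.42, with signals of 1636 and 1978 and of 467.7 and 624.8. SLC30A4 had 1217 and 1225, almost equal. The SLC39 genes ran from -0.22 to -0.11.

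Among the other metals, the magnesium carrier SLC41A1 stood at -0.71, with 150.9 and 247.3. The copper importer SLC31A1 stood at -0.11 over 6 probe sets, and the iron exporter SLC40A1 was under the threshold in H2A.Z-1 KO and at 115.0 in H2A.Z-2 KO. SLC48A1, which releases heme from lysosomes, was the only metal gene above 0, with 1660 and 1218 and a ratio of 0.45.

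Carriers of inorganic ions went both ways. Of 22 genes measured from 49, SLC26A11 was past 2-fold in H2A.Z-1 KO and SLC26A9 in H2A.Z-2 KO. Of all genes 2.86% and 3.8% were. In this class 13 genes were below 0 and 9 above. The median was -0.18, or 0.05 for the 14 genes with all probe sets above the threshold on both arrays. Of the 5 sodium-proton exchangers of SLC9 measured, 4 were below 0 under the main processing and under all 3 other scalings. The share of all genes below 0 was 57.4% as deposited. SLC9A5 and SLC9A9 passed the threshold only in H2A.Z-2 KO and so had to be below 0 as deposited. SLC9A8, a Golgi exchanger, had 1186 and 1812, a ratio of -0.61, and SLC9B2, with 199.2 and 319.7, stood at -0.68. SLC9A9, an endosomal exchanger, had 71.6 and 89.1 in H2A.Z-1 KO against 210.2 and 177.5 in H2A.Z-2 KO. Both were under the threshold in H2A.Z-1 KO, so the difference was at least 1.97-fold, and its log2 ratio was -1.27 with a 40th-percentile floor, past 2-fold. SLC9A7, an exchanger of the trans-Golgi network, stood at 0.10, with 665.9 and 621.8.

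The bicarbonate and anion carriers of SLC4 and the cation-chloride cotransporters of SLC12 ran from -0.52 for SLC4A9 to 0.64 for SLC12A4. SLC4A7, which imports sodium bicarbonate, had 1188 and 1416, a ratio of -0.25, and the anion exchanger SLC4A2 stood at 0.12. The sodium-potassium-chloride cotransporter SLC12A2 had 517.6 and 511.4. The potassium-chloride cotransporter SLC12A4 was higher in H2A.Z-1 KO, with 379.7 and 244.4 and a ratio of 0.64 with all 3 probe sets above 0. The phosphate importer SLC20A2 was higher in H2A.Z-1 KO by at least 1.69-fold. Its 2 probe sets gave 941.1 and 118.5 in H2A.Z-1 KO and 398.4 and 64.1 in H2A.Z-2 KO, and the brighter of them passed 2-fold at 1.24. The log2 ratio of the gene was 0.76, a bound because 64.1 was raised to 98, and 1.06 with a 40th-percentile floor.

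Families with a gene past 2-fold and another measured gene were not alike in direction. SLC18, SLC30, SLC36 and SLC44 had all measured genes below 0 and SLC43 had both above 0. Below 0 were 57.4% of all genes and 72.0% of solute carrier genes, and each family was picked through its gene past 2-fold. SLC2, SLC22, SLC26 and SLC38 had genes on both sides. Both measured SLC44 genes, SLC18A2, SLC22A13L, SLC30A7, SLC38A3 and SLC38A7 passed the threshold only in H2A.Z-2 KO and so had to be below 0. SLC22A15L passed it only in H2A.Z-1 KO and had to be above 0. SLC26A11 stood at 1.10 and SLC26A9 at -1.13, SLC2A13 at 1.26 and SLC2A14 at -1.01, and SLC38A2 at 0.70 and SLC38A3 at -1.22. Of these, SLC26A11, SLC26A9 and SLC2A14 lost their calls under some alternatives. So did SLC43A2 and SLC36A4, and SLC36A4 turned to 0.017 with no floor.

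A list of carriers known from organelle membranes, in which every SLC35 gene was counted by its family, was set beside the rest. Of 48 organelle carriers measured, 39 were below 0, with a median of -0.29. Of the other 80 carriers, 55 were below 0, with a median of -0.24. The share of all genes below 0 was 57.4%. In both groups some genes passed the threshold only in H2A.Z-2 KO and so had to be below 0. For the 38 organelle and 52 other carriers with every probe set used above the threshold on both arrays, the medians were -0.26 and -0.24. Past 2-fold were 0 and 2 organelle carriers and 3 and 7 others, in H2A.Z-1 KO and in H2A.Z-2 KO in that order. The shares of all genes measured were 2.86% and 3.8%. This list leaves out the vesicular SLC18B1, the intracellular SLC2A8 and the Golgi protein SLC10A7. With these 3 added, after seeing the data, 42 of 51 organelle carriers were below 0, with a median of -0.31, and 0 and 3 were past 2-fold. The difference between organelle and other carriers was not tested.

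Probe sets of the same carrier often disagreed at this size of difference. Of 66 genes with several probe sets above the threshold, 34 had all of them below 0, 12 had all above 0 and 20 had both signs. Of all 3590 such genes, 1326 had all below 0, 972 all above 0 and 1292 both signs. The other 66 solute carrier genes rest on 1 probe set, among them 8 of the 13 past 2-fold.

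Partners and regulators of solute carriers came from a list of 37 genes, of which 27 were measured. Of these 27, 1 was at least 2-fold higher on each array, beside 2.86% of all genes for H2A.Z-1 KO and 3.8% for H2A.Z-2 KO, and the median was -0.09. NEDD4L, a ubiquitin ligase that removes ion and amino acid carriers from the cell surface, was higher in H2A.Z-1 KO by at least 2.24-fold, with 1007 and 449.4 after the floor, and the ratios of its 5 probe sets lay between 0.84 and 1.55. BACH1, a heme-regulated repressor of oxidative stress genes, had 216.6 and 452.8, 2.09-fold higher in H2A.Z-2 KO. Its ratio of -1.06 was -0.68 with a 40th-percentile floor, -0.98 with quantile normalization and -0.9987 with the brightness trend removed, all under 2-fold.

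The remaining partners differed less. The MCT1 chaperone BSG stood at -0.54 with all 3 probe sets below 0, and EMB, its relative, at 0.21. The sodium pump subunits ATP1B1 and ATP1B3 stood at -0.32 and 0.06. NFE2L2, which activates SLC7A11 and glutathione genes, stood at -0.66 and GCLC, of glutathione synthesis, at -0.67, whereas ATF4, the amino acid response factor, stood at -0.07. TFEB, the regulator of lysosomal genes, was higher in H2A.Z-1 KO at 0.81, and RRAGC, a GTPase that relays lysosomal amino acids to mTORC1, at 0.77. Each rests on 1 probe set that can match several transcripts. SLC38A9 of the same pathway as RRAGC stood at -0.81, and LAMTOR2, LAMTOR3 and LAMTOR5 at 0.17, 0.24 and 0.06. MTOR, RPTOR and RRAGA stood at -0.06, -0.15 and -0.03. The zinc sensor MTF1 stood at -0.20, and the transferrin receptor TFRC at 0.23.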

How the data were processed

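Total RNA of 1 DT40 culture per genotype was labelled with biotin and hybridised to chicken expression arrays, per the labels' protocols. Per probe set, 1 linear intensity value was deposited, which MAS5 computed, per the submitters' processing notes. This method scales arrays to a common mean and so hides global differences. Neither its version nor its settings are known here. Annotation named 27178 probe sets with 1 gene, 177 with several and left 11180 unnamed. Of those with 1 gene, 26863 took their symbol from a RefSeq table of assembly GRCg7b, whether or not it changed. The 96 control probe sets were left out.

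The threshold of 98 is close to the 60th percentile of both arrays, 98.2. A gene's ratio is the mean over its probe sets above the threshold on 1 or both arrays, and "at least" marks folds in which the lower array was raised to 98. A signal depends on its probes, so signals of different genes were not compared as levels; brightness served only to pick some of the genes named. Substrate classes follow family numbers. Genes named were all past 2-fold, the 3 brightest and the 2 most distant per direction in each class, listed pairs and partners, and genes at the threshold; other members were chosen after their values were seen. The members and lists were chosen with earlier results of these data known. Steps were tested on simulated data and run with Python 3.11.15, pandas 2.3.3, numpy 2.4.6 and statsmodels 0.14.6. Probe or protein sequences were not used here.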

Additional observations from a re-analysis of the deposited data

How the results depend on the processing

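With 1 array per genotype nothing could be left out, and no alternative replaces a replicate. No paired analysis was possible because each genotype has 1 array. Dim signal sets the main limit: with a 40th-percentile floor (37.6), an 80th-percentile floor (567.9) and with no floor, 214, 61 and 252 genes were measured. The counts past 2-fold in H2A.Z-1 KO and in H2A.Z-2 KO were then 9 and 21, 3 and 2, and 18 and 51. As shares these were 4.21% and 9.81%, 4.92% and 3.28%, and 7.14% and 20.2%. All genes had 2.91% and 5.97%, 2.62% and 1.82%, and 6.96% and 15.1%. With 1.5-fold the counts were 11 and 30, beside 7.57% and 11.7% of all genes. With 3-fold they were 0 and 3, and the share of all genes is not given here. From only the brightest probe set of a gene the counts past 2-fold were 7 and 10, or 5.3% and 7.58%, beside 3.22% and 4.17% of all genes. The class median turned to 0.010 for amino acids with an 80th-percentile floor and to 0.030 for sugars and carboxylates with no floor, and to 0.0083 for nucleosides and vitamins with a 40th- and with an 80th-percentile floor. It moved to -0.76 for lipids and organic ions and to -2.09 for vesicular carriers with no floor, and for the latter to -1.19 once several-transcript probe sets were dropped, where 3 genes remained. Of the 13 genes past 2-fold, 7 stayed past it under every alternative that measured them; SLC26A11, SLC26A9, SLC2A14, SLC36A4, SLC43A2 and SLC9A3R1 did not. SLC36A4 turned to 0.017 with no floor. Chosen after seeing the data, the counts were 3 and 9 without genes that are no carriers and 4 and 6 for genes above the threshold on both arrays. Apart from the effect of a floor on which probe sets enter, the causes were not tested.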

Other observations

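The measured solute carrier genes, with the 4 that are no carriers, were spread over 28 chromosomes of the RefSeq assembly GRCg7b. Those with the most members were chromosome 1, with 15 genes, 10 of them below 0 and a median log2 ratio of -0.37, and chromosome 3, with 12 genes, 10 below 0 and a median of -0.47. Over all chromosomes, 72.0% of the solute carrier genes and 57.4% of all genes were below 0. On chromosome 18 the 4 genes, among them SLC26A11 and SLC9A3R1, had 1 below 0 and a median of 0.60. On chromosome 20, which holds SLC32A1, SLC17A9, SLC9A8, SLC35C2, SLC52A3 and SLC12A5, 3 of 6 genes were below 0. On the Z chromosome, SLC44A1, SLC38A9 and SLC30A5 were below 0 and SLC12A2 was at 0.02. Some of these genes passed the threshold only in H2A.Z-2 KO and so had to be below 0. They were SLC6A12, SLC35A5, SLC5A8 and SLC41A2 on chromosome 1, SLC32A1 and SLC12A5 on chromosome 20, and SLC44A1. Differences between chromosomes were not tested.

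Of 4 probe sets left out because they carry several gene symbols, 3 name SLC40A1 together with ORMDL1. Their signals were 4.32, 28.8 and 34.3 in H2A.Z-1 KO and 70.9, 113.1 and 67.7 in H2A.Z-2 KO, the first array being lower in all 3. The fourth, annotated to SLC4A8, gave 56.7 and 9.39, both under the threshold. These values are listed without a gene call.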
